A study of Mus musculus with 12 samples.

Results

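Keratin genes encode the intermediate filament proteins of epithelial cells. Their chromatin was examined in alveolar type II (AT2) cells, which make lung surfactant, by Omni-ATAC-seq, an assay in which Tn5 transposase inserts sequencing adapters where the DNA of isolated nuclei is accessible. The keratin genes were the protein-coding genes of mouse chromosomes 11 and 15 in the RefSeq annotation of GRCm38.p6 whose symbol is Krt followed by a number, 1 excepted: 52 of 21631 protein-coding genes. The 27 on chromosome 11 lie between bases 99232761 and 100269951 and the 25 on chromosome 15 between bases 101348315 and 102032026. Each gene was read with 10 kb on either side (its locus). Because neighbours lie close together, the 52 loci merge into 17 stretches, and many loci share peaks.

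The AT2 cells came from BALB/c mice aged 6 to 8 weeks that had received 800000 tumour cells carrying a label by tail vein 7 days earlier. The 4 groups were CT26 niche, CT26 distal, 4T1 niche and 4T1 distal, with 3 libraries each, 12 in all. CT26 is a BALB/c colon carcinoma line and 4T1 a BALB/c mammary carcinoma line; niche cells were sorted from the metastatic niche and distal cells from lung away from it. Each library held 50000 sorted cells from 5 pooled lungs, so animals cannot be told apart, and every mouse carried tumour cells. How niche cells were marked for sorting is not given in the labels. The authors deposited 1 list of broad peaks per library, from 42067 to 55529 peaks for CT26 and from 56330 to 66911 for 4T1. The lists hold no read counts, so depth is unknown beyond the 30000000 reads per sample that the labels state. In such bulk libraries, a region open in fewer cells and a region less open in each cell cannot be told apart.

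Keratins pair as obligate heteropolymers of an acidic type I chain and a basic type II chain. The type I genes form the chromosome 11 cluster, apart from Krt18, which lies beside the type II genes on chromosome 15. Simple keratins such as Krt18, Krt19 and Krt7 fill single-layered epithelia, the alveolar epithelium among them. Krt5, Krt14 and Krt15 mark basal cells of stratified and airway epithelia, Krt6a, Krt6b, Krt16 and Krt17 are induced in wounded or activated keratinocytes, and suprabasal keratins appear as such cells differentiate. The hair keratins build the hair shaft, and another set builds the inner root sheath and companion layer around it.

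A start-site window of 300 bases (250 before and 50 after the annotated start) was at hand for 35 of the 52 genes, 36 windows in all. Peaks overlapped 4 of these windows in all 12 libraries, those of Krt18, Krt7 and Krt23 and 1 of the windows of Krt13, and the other 32 in no library; none was in between. Over all protein-coding genes, 53.2% of 21045 windows were overlapped in all 12 libraries and 37.9% in none. The sequences below, from RefSeq (GRCm38.p6), set 3 of the open starts beside a hair keratin and a basal keratin whose starts lay under no peak. They read 5′ to 3′ in the direction of the gene, and capitals mark the motifs, which were searched on both strands: the TATA box by the letters TATAAA, the GC box by GGGCGG and the AP-1 site by TGANTCA.
Krt18, chr15:102027966-102028265, plus strand, peak in all 12 libraries, no motif: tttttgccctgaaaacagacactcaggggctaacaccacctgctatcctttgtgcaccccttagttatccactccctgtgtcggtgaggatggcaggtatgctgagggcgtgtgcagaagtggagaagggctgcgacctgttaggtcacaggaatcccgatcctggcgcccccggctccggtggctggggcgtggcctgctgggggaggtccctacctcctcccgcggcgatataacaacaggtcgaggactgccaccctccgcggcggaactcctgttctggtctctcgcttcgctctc
Krt7, chr15:101412153-101412452, plus strand, peak in all 12 libraries, GC boxes: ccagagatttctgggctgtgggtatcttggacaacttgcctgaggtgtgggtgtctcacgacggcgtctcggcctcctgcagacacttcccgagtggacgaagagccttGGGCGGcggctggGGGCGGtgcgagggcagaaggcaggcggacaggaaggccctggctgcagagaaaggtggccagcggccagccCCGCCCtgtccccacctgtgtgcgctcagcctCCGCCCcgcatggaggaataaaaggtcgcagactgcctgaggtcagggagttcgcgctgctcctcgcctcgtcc
Krt13, chr11:100120528-100120827, minus strand, peak in all 12 libraries, AP-1 sites: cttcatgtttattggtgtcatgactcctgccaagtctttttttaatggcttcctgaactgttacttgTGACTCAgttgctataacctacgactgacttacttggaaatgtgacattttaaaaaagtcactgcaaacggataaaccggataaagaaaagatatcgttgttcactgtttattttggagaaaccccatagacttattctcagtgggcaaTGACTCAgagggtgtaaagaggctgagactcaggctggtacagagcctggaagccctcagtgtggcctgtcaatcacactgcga
Krt31, chr11:100050502-100050801, minus strand, no peak, TATA box: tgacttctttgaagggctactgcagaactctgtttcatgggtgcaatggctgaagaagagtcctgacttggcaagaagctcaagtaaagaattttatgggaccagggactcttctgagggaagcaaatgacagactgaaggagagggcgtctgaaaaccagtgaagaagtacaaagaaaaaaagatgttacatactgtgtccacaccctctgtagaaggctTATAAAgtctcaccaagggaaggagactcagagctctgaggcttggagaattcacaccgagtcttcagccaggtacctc
Krt5, chr15:101712856-101713155, minus strand, no peak, no motif: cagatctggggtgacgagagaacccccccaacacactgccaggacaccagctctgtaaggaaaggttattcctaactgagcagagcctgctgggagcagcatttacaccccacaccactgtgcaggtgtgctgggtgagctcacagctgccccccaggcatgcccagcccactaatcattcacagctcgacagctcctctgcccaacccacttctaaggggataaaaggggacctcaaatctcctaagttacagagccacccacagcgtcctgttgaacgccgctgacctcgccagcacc

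The open starts of the simple keratins were rich in G and C, with 61.3% GC and 17 CpG for Krt18 and 66.3% GC and 21 CpG for Krt7. The Krt7 window held 4 GC boxes, 2 as printed and 2 on the opposite strand (CCGCCC), at 141, 128, 56 and 24 bases before the start, counted from the first base of each motif as printed; none of the motifs in these windows overlapped another. The Krt13 window differed from them, with 42.7% GC and AP-1 sites at 183 and 34 bases before the start. The Krt31 window had 46.3% GC and a TATA box 29 bases before the start. Across the 36 keratin windows, 18 (50.0%) held TATAAA, against 12.7% of all windows, and 2 (5.56%) held GGGCGG, against 46.7% of all windows. The TATA box was in 7 of 8 root sheath windows and 6 of 9 hair shaft windows. TGANTCA was in 2 keratin windows (5.56%), against 7.04% of all windows. Both were windows of Krt13. The one not shown, chr11:100121517-100121816, held 1 AP-1 site and lay under no peak. Among the windows of all genes that lay under a peak in every library, 5.68% held TATAAA and 70.1% held GGGCGG. Most keratin windows, 32 of 36, lay under no peak, and of these 56.25% held TATAAA and 3.125% held GGGCGG. For the windows of all genes under no peak the shares were 22.9% and 13.85%. A match is a run of letters and not a bound site.

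By class, the simple keratins had the largest share of their loci under peaks. This share averaged 6.67% over the 12 libraries for the 4 simple keratins, 4.85% for the 6 other keratins (Krt23, Krt42, Krt80, Krt88, Krt90 and Krt222), 4.38% for the 12 suprabasal, 2.5% for the 15 hair shaft, 1.40% for the 3 basal, 1.36% for the 8 root sheath and 0.167% for the 4 activation keratins, against 3.57% for all keratins and 2.66% for all protein-coding genes. Each class holds few genes, so a single long locus weighs heavily, as Krt78 does among the suprabasal keratins. A peak in all 12 libraries was found at 28 of the 52 loci (53.9%) and in none at 12 (23.1%), against 71.2% and 19.6% of all protein-coding loci. The 12 loci without a peak were spread over the classes: Krt20; Krt5; Krt6b; Krt2, Krt9 and Krt24; Krt35, Krt40 and Krt84; and Krt27, Krt71 and Krt73.

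**Figure D1:**
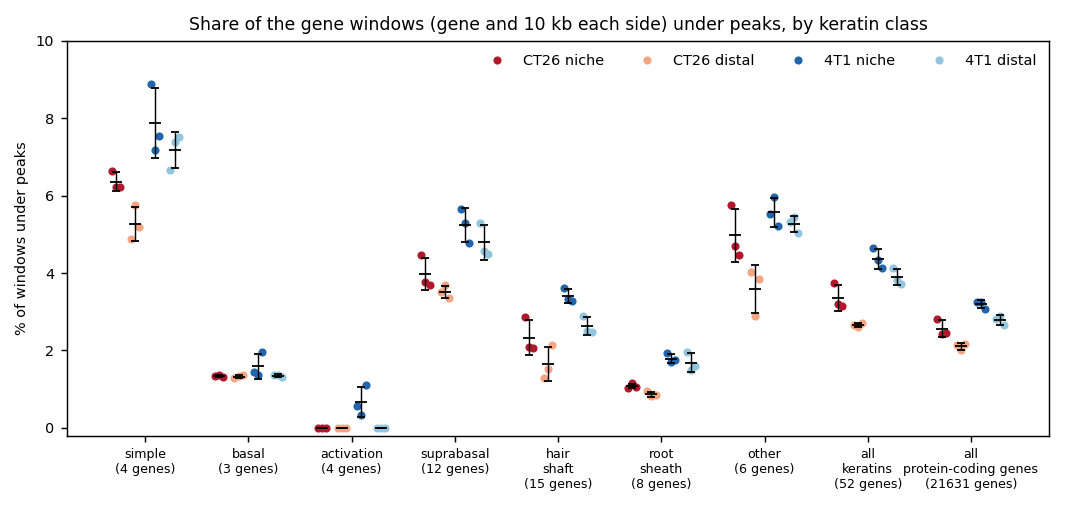
Percent of the gene loci (gene and 10 kb each side) under peaks, for each keratin class and for all protein-coding genes; points are libraries in the order CT26 niche, CT26 distal, 4T1 niche and 4T1 distal, and bars are mean and SD (n = 3). Simple keratins sit highest, at 6.36% in CT26 niche and 5.27% in CT26 distal and at 7.86% in 4T1 niche and 7.18% in 4T1 distal; activation keratins are at 0 outside 4T1 niche.

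Simple keratins were above hair and basal keratins in every group. Mean shares of hair keratins were above those of basal ones, in CT26 distal libraries by less than the spread between libraries. Apart from 1 Krt14 peak in 4T1 niche replicate 3, the basal share was the edge of the region at Krt19. That edge also counts for the simple keratins. Simple keratins had 6.36 ± 0.236% of their loci under peaks in CT26 niche and 5.27 ± 0.443% in CT26 distal libraries, and 7.86 ± 0.903% in 4T1 niche and 7.18 ± 0.461% in 4T1 distal libraries (mean ± SD, n = 3 each). Hair keratins, shaft and root sheath together, had 1.87 ± 0.263% in CT26 niche and 1.36 ± 0.255% in CT26 distal libraries, and 2.82 ± 0.158% in 4T1 niche and 2.29 ± 0.239% in 4T1 distal libraries. Basal keratins had 1.34 ± 0.0210% in CT26 niche and 1.32 ± 0.0399% in CT26 distal libraries, and 1.59 ± 0.318% in 4T1 niche and 1.35 ± 0.0376% in 4T1 distal libraries. These shares were not scaled and moved with the peak lists as a whole: over all protein-coding genes they were 2.56 ± 0.223% in CT26 niche, 2.10 ± 0.0863% in CT26 distal, 3.19 ± 0.105% in 4T1 niche and 2.78 ± 0.121% in 4T1 distal libraries. The classes were not tested against each other.

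Differences between groups were tested gene by gene. The 16823 loci that held a peak in 3 or more libraries were fitted with limma, on log2 of the length under peaks after scaling every library to the same covered length and adding 500 bp. Log2 changes are on that scale. Of the 52 keratin loci, 36 passed this filter. A locus was called where the p of limma, adjusted by Benjamini-Hochberg across all 16823, was below 0.05. Most keratin loci were not called in the comparison of niche with distal cells. In 4T1, 1 of 36 was called, Krt31, higher in niche, which met the filter only through its niche libraries, against a background of 0.624% of all loci called (0.594% higher, 0.0297% lower). In CT26, 1 of 36 was called, Krt42, higher in niche, against 0.672% (0.523% higher, 0.149% lower). Over both models, these same 2 loci were called, against 2.38% (1.5% higher, 0.886% lower). At an unadjusted p under 0.05 there were 6 keratin loci in 4T1 (16.7%, against 13.4% of all loci), 8 in CT26 (22.2%, against 19%) and 6 over both models (16.7%, against 24.8%), shares near or below the background. The median log2 change of the 36 was -0.000628 in 4T1, 0.0380 in CT26 and 0.0366 over both, against -0.0456, -0.0358 and -0.0372 over all loci. Without scaling, the median over all loci moves to 0.117 in 4T1, 0.179 in CT26 and 0.154 over both, and the loci called split into 565 higher and 4 lower in 4T1, 2011 and 16 in CT26, and 3956 and 25 over both. Scaled, all niche libraries lay above all distal ones at 6 keratin loci in 4T1 (16.7%, against 8.08% of all tested loci). In CT26 they did so at 4 (11.1%, against 6.76%). They lay below at 6 in 4T1 (16.7%, against 19.5%) and at 3 in CT26 (8.33%, against 15.3%). The 6 above in 4T1 include Krt16, Krt17, Krt31 and Krt34, which met the filter only through niche libraries. Every distal library was at 0 there, so the filter largely fixed their direction. These loci are also among the 6 under an unadjusted p of 0.05 in 4T1. Krt16 and Krt17 share their peaks and Krt34 reads a region of Krt31, so the loci counted are not separate results. Separations before scaling, given below, were not counted over all loci, and niche lists are longer. They do not set a locus apart.

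**Figure D2:**
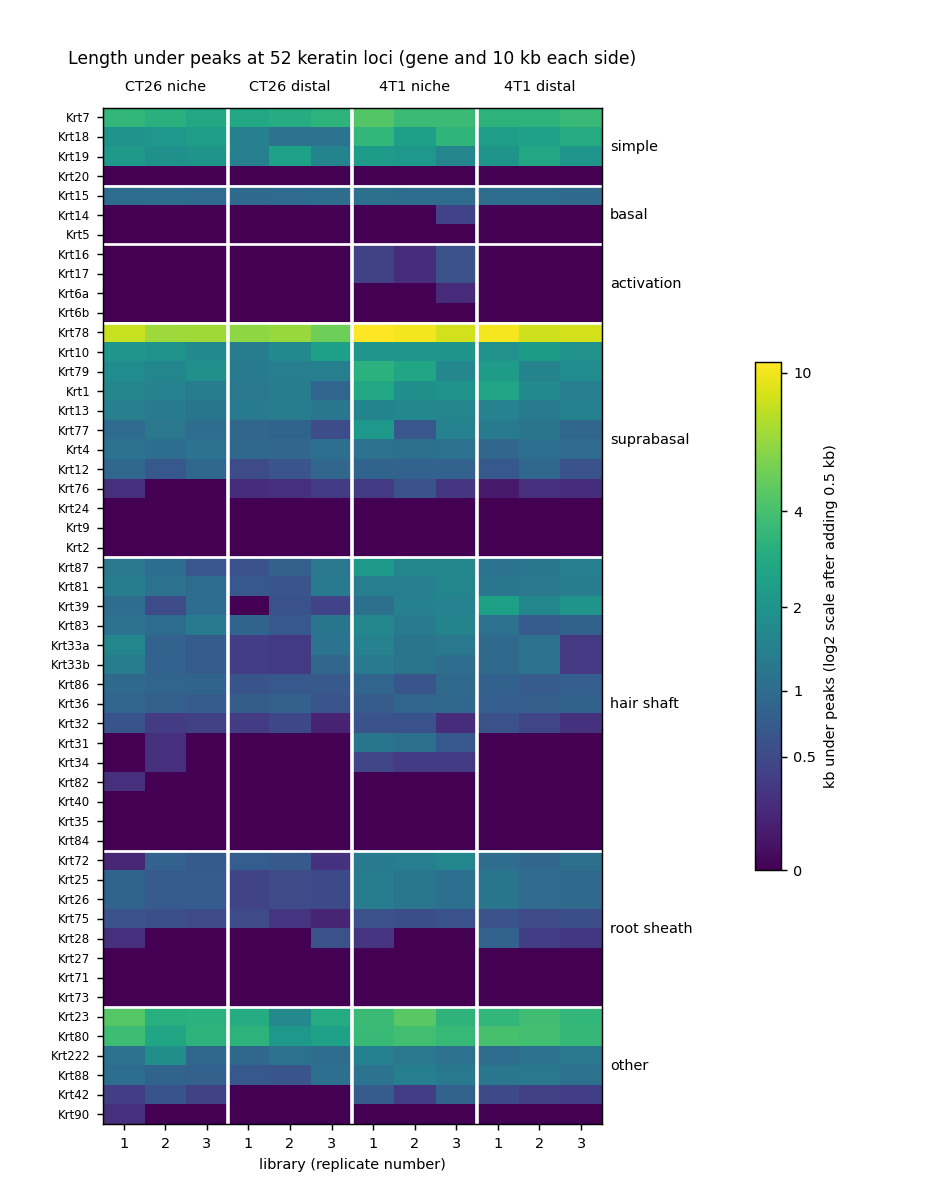
Length under peaks in kb at the 52 keratin loci (rows, by class) in the 12 libraries (columns, CT26 niche, CT26 distal, 4T1 niche and 4T1 distal), not scaled, on a log2 colour scale after adding 0.5 kb. Krt78, Krt7, Krt23 and Krt80 are under peaks throughout, and the peaks of Krt31, Krt16 and Krt17 stand in the 4T1 niche columns, with 1 CT26 niche library at Krt31.

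Krt18 encodes the type I partner of the simple epithelial filament. The locus had 1.97, 2.13 and 2.37 kb under peaks in CT26 niche libraries and 1.43, 1.13 and 1.13 kb in CT26 distal libraries. It had 3.45, 2.40 and 3.33 kb in 4T1 niche libraries and 2.34, 2.45 and 2.89 kb in 4T1 distal libraries. Before scaling, all CT26 niche libraries lay above all CT26 distal libraries, and the 4T1 groups overlapped. On the scaled log2 scale niche minus distal was 0.42 ± 0.15 (SE) in CT26 and 0.03 ± 0.15 in 4T1, and neither passed (limma adjusted p = 0.170 and 0.939). The peak at the start itself, chr15:102027993-102029084, was nearly constant, 1006 to 1085 bp long in all 12 libraries. The lengths that varied came from beside the gene. A region 3448 bp before it, chr15:102023898-102024767, measured 497, 659 and 706 bp in CT26 niche libraries and was absent from all CT26 distal libraries. In 4T1 it measured 712, 687 and 632 bp in niche libraries and 0, 469 and 399 bp in distal libraries, so that the longest stretches were in niche cells of both models. A region 1469 bp beyond the gene, chr15:102033496-102035095, measured 257, 322 and 218 bp in CT26 niche libraries and 265, 0 and 0 bp in CT26 distal libraries, against 1546, 0 and 1532 bp in 4T1 niche libraries and 1135, 771 and 1273 bp in 4T1 distal libraries. It was long in 4T1 libraries of both sites and missing from 4T1 niche replicate 2.

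Krt7, a type II simple keratin of ducts and lung epithelium, had 3.42, 3.10 and 2.73 kb under peaks in CT26 niche libraries and 2.68, 2.95 and 3.24 kb in CT26 distal libraries. It had 4.41, 3.65 and 3.69 kb in 4T1 niche libraries and 3.25, 3.26 and 3.64 kb in 4T1 distal libraries. The 4T1 niche libraries all lay above the 4T1 distal ones before scaling, and the CT26 groups overlapped. Scaled niche minus distal was 0.00 ± 0.10 in 4T1 (limma adjusted p = 0.996) and -0.20 ± 0.10 in CT26 (0.288). Its start lay under a region of 2363 bp, chr15:101410589-101412951, that ranked between the 67.7th and 83.2nd percentile of the authors' -log10 p within each list.

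Krt19, a type I simple keratin that lacks the usual tail domain, had 2.18, 1.88 and 2.00 kb in CT26 niche libraries and 1.45, 2.48 and 1.54 kb in CT26 distal libraries. It had 2.28, 2.14 and 1.56 kb in 4T1 niche libraries and 2.00, 2.73 and 2.03 kb in 4T1 distal libraries. Niche and distal libraries overlapped in both models, and the adjusted p values of limma were 0.824 in CT26 and 0.459 in 4T1. Most of the length was 1 region over the end of the gene with the higher coordinate, chr11:100144879-100146708, present in all 12 libraries at the 81.2nd to 89.4th percentile. Krt20, the simple keratin of intestine and urothelium, had no peak within 10 kb in any library.

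The basal keratins carried almost no peak of their own. Krt5, the type II keratin of basal cells, had 0 bp in all 12 libraries. Krt14, its type I partner, had 0.439 kb in 4T1 niche replicate 3 and 0 in the other 11 libraries, and that peak stood at the 0.585th percentile of its list. Krt15 had 1.001, 1.01 and 0.982 kb in CT26 niche libraries and 0.954, 0.989 and 1.01 kb in CT26 distal libraries. It had 1.07, 1.02 and 1.01 kb in 4T1 niche libraries and 1.02, 1.01 and 0.971 kb in 4T1 distal libraries. These near-constant values were wholly the edge of the region at Krt19, the only peak within 10 kb of Krt15. All 5 airway basal markers, Trp63, Ngfr, Aqp3, Dapl1 and Snai2, had a peak in at least 1 library. Most genes do, since 19.6% of all protein-coding loci had none. Dapl1 had no peak in 4T1 distal replicates 2 and 3, CT26 niche replicate 2 and CT26 distal replicate 2. The 5 markers summed to 4.54 to 7.74 kb in CT26 niche, 5.88 to 6.99 kb in CT26 distal, 8.26 to 10.9 kb in 4T1 niche and 6.30 to 7.66 kb in 4T1 distal libraries. All 10 AT2 markers, Sftpc and Abca3 among them, had peaks too, summing to 45.6 to 56.0 kb in CT26 niche, 40.2 to 46.0 kb in CT26 distal, 64.2 to 73.2 kb in 4T1 niche and 54.5 to 70.2 kb in 4T1 distal libraries. Some marker loci differed between niche and distal cells over both models on the scaled log2 scale. The surfactant gene Sftpb was lower in niche cells, at -0.36 ± 0.07 (limma adjusted p = 0.0249). The alveolar type I marker Pdpn was higher by 0.65 ± 0.11 (0.0197), the transitional alveolar marker Plaur by 0.50 ± 0.09 (0.0261) and the endothelial marker Pecam1 by 0.70 ± 0.16 (0.0433). Each was the only marker of its list called over both models, against 2.38% of all loci. The lists held 10 AT2, 7 AT1, 8 transitional and 4 endothelial loci tested. Their median log2 changes were -0.0739, -0.0147, -0.0915 and 0.0117. The AT1 and transitional medians thus lay below 0, unlike Pdpn and Plaur. The 4 fibroblast loci tested had a higher median, 0.432 over both models, 0.315 in 4T1 and 0.39 in CT26. The medians over all loci were -0.0372, -0.0456 and -0.0358, and 0 of the 4 were called. The 3 macrophage loci tested had a median of 0.0161 over both models. Pdpn was also called in CT26 (0.0364), and none of the markers was called in 4T1. The 4 endothelial markers together had 5.85 to 8.41 kb in CT26 niche, 5.40 to 6.24 kb in CT26 distal, 10.4 to 13.2 kb in 4T1 niche and 7.26 to 7.91 kb in 4T1 distal libraries. What part other cell types have in the keratin peaks was not tested.

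The activation keratins had peaks in 4T1 niche cells and in no other group. The loci of Krt16 and Krt17 share their peaks and so have the same values, 0.420, 0.245 and 0.579 kb in 4T1 niche libraries and 0 in all 9 others. The length lay in a region 155 bp from Krt16, chr11:100249058-100249385, of 203, 245 and 208 bp in the 4T1 niche libraries, and in a region 1566 bp from Krt17, chr11:100254276-100254648, of 217, 0 and 371 bp. The region beside Krt16 stood at the 3.67th to 8.31st percentile of its lists, and that beside Krt17 at the 23.3rd and 31.5th. Niche against distal in 4T1 did not pass (limma adjusted p = 0.0985). Krt6a, their type II partner, had 0.227 kb in 4T1 niche replicate 3 alone, and Krt6b had none. 4T1 niche libraries had the longest lists, 65373 ± 1597 peaks against 57404 ± 976 in 4T1 distal libraries, and the part of list length in these peaks was not tested.

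Among suprabasal keratins, Krt78 had the longest stretches: 8.12, 6.595 and 6.72 kb in CT26 niche libraries and 6.13, 6.44 and 5.13 kb in CT26 distal libraries. It had 10.7, 10.1 and 8.61 kb in 4T1 niche libraries and 10.3, 8.44 and 8.69 kb in 4T1 distal libraries. Niche and distal overlapped in both models. Its annotated span is long, its locus measures 70.6 kb, and that locus reaches into the next gene, so the length is not all of Krt78. One of its regions, chr15:101966543-101967370, stood at the 84.4th to 93.3rd percentile in all 12 libraries. Krt10, the type I keratin of differentiating epidermis, likewise held a region in all 12, chr11:99385872-99386712, at the 70.3rd to 90.9th percentile. Krt13, a type I keratin of stratified mucosa, held 1 over the start shown above, chr11:100120024-100120890, of 440 to 814 bp. Its other annotated start lay under no peak. Of the epidermal markers, Ivl and Lor had peaks, and Dsg3, Sprr2a1 and Casp14 were at 0 in all 12. The sum of the 5 markers was 2.24 to 2.85 kb in CT26 niche, 2.41 to 2.60 kb in CT26 distal, 3.37 to 3.9 kb in 4T1 niche and 3.38 to 3.81 kb in 4T1 distal libraries.

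Krt31, a type I keratin of the hair shaft cortex, was the keratin locus called in the 4T1 niche. It had 1.18, 1.08 and 0.681 kb in 4T1 niche libraries and 0 in all 4T1 distal libraries (limma adjusted p = 0.00975). Its peaks were in 4 libraries, 3 of them 4T1 niche, so it entered the test only through niche libraries, and at a filter of 6 libraries it is not tested. In CT26 it had 0, 0.270 and 0 kb in niche libraries and 0 in all distal libraries. Over both models the adjusted p was 0.0230. No fold is given, since the distal libraries had no peak. Groups at 0 have no spread and lower the spread that the 4 groups share, so that this p can be too small, here and at Krt42, Krt16, Krt17 and Col17a1. Without 4T1 niche replicate 1 or replicate 2, the limma adjusted p was 0.0728 or 0.0816 in 4T1 and 0.0643 or 0.0726 over both models, while the number of all loci called in 4T1 was 57 or 26, against 105 with every library. Over all alternatives run, the adjusted p in 4T1 ranged from 0.00321 to 0.194.

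Those peaks did not lie at the Krt31 start shown above. A region over the downstream end of the gene, chr11:100046215-100046712, measured 457, 357 and 351 bp in 4T1 niche libraries and 0 in 4T1 distal libraries, with 270 bp in CT26 niche replicate 2, at the 13.9th to 38.8th percentile. The other, chr11:100055717-100056533, lies 5165 bp upstream and measured 720, 720 and 330 bp in 4T1 niche libraries and 0 elsewhere, at the 17.1st to 17.8th percentile. Krt34, the neighbouring hair keratin, shares the region at the Krt31 end, with 0.457, 0.357 and 0.351 kb in 4T1 niche libraries and 0 in 4T1 distal libraries, and was not called.

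Other hair keratins had peaks in more groups. Krt39, a hair shaft keratin, had 1.02, 0.533 and 1.03 kb in CT26 niche libraries and 0, 0.593 and 0.436 kb in CT26 distal libraries. It had 1.08, 1.46 and 1.49 kb in 4T1 niche libraries and 2.43, 1.58 and 2.00 kb in 4T1 distal libraries. In 4T1 the niche libraries all lay below the distal ones, and in CT26 the groups overlapped at 0.533 and 0.593 kb. Krt87 had the longest mean over the 12 libraries in the hair shaft class, though not in every group, with 1.21, 1.03 and 0.662 kb in CT26 niche, 0.606, 0.795 and 1.21 kb in CT26 distal, 2.20, 1.59 and 1.62 kb in 4T1 niche and 1.14, 1.19 and 1.43 kb in 4T1 distal libraries. Of the root sheath keratins, Krt72 had 0.201, 0.831 and 0.707 kb in CT26 niche, 0.771, 0.692 and 0.284 kb in CT26 distal, 1.31, 1.39 and 1.58 kb in 4T1 niche and 1.03, 0.893 and 1.08 kb in 4T1 distal libraries. For both genes the 4T1 niche libraries lay above the 4T1 distal ones before scaling, and neither was called. The hair follicle markers Krtap8-1 and Msx2 had no peak in any library, while Hoxc13, Tchh and Padi3 had some. The 5 markers summed to 3.54 to 3.64 kb in CT26 niche, 2.37 to 3.05 kb in CT26 distal, 3.76 to 5.38 kb in 4T1 niche and 2.98 to 3.62 kb in 4T1 distal libraries.

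Krt42, a type I keratin that is a pseudogene in humans, was the locus called in the CT26 niche. It had 0.393, 0.617 and 0.417 kb in CT26 niche libraries and 0 in all CT26 distal libraries (limma adjusted p = 0.0337). In 4T1 it had 0.721, 0.379 and 0.837 kb in niche libraries and 0.507, 0.402 and 0.395 kb in distal libraries, which overlap. Over both models the adjusted p was 0.0350. The CT26 peak lies 7951 bp from the gene, chr11:100277903-100278519, at the 8.01st to 33.8th percentile of the lists that call it, and only the CT26 distal libraries lacked it. The niche values of 4T1 replicates 1 and 3 also hold the region beside Krt17. The call in CT26 was lost when any 1 CT26 library (limma adjusted p from 0.0503 to 0.0878) or 4T1 niche replicate 1 (0.0556) was left out, and over all alternatives run the adjusted p ranged from 0.00312 to 0.862. Over both models the call was lost without any 1 library (0.0503 to 0.0863) other than 4T1 niche replicate 2 and CT26 distal replicate 3. Krt23, an atypical type I keratin, had the longest mean over the 12 libraries among the remaining keratins (3.37 kb, against 3.33 kb for Krt80, which was longer in both distal groups), with 4.46, 3.06 and 3.16 kb in CT26 niche, 2.93, 1.67 and 2.88 kb in CT26 distal, 3.69, 4.57 and 3.29 kb in 4T1 niche and 3.45, 3.82 and 3.44 kb in 4T1 distal libraries. All CT26 niche libraries lay above the CT26 distal ones at Krt23 before scaling, and it was not called.

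**Figure D3:**
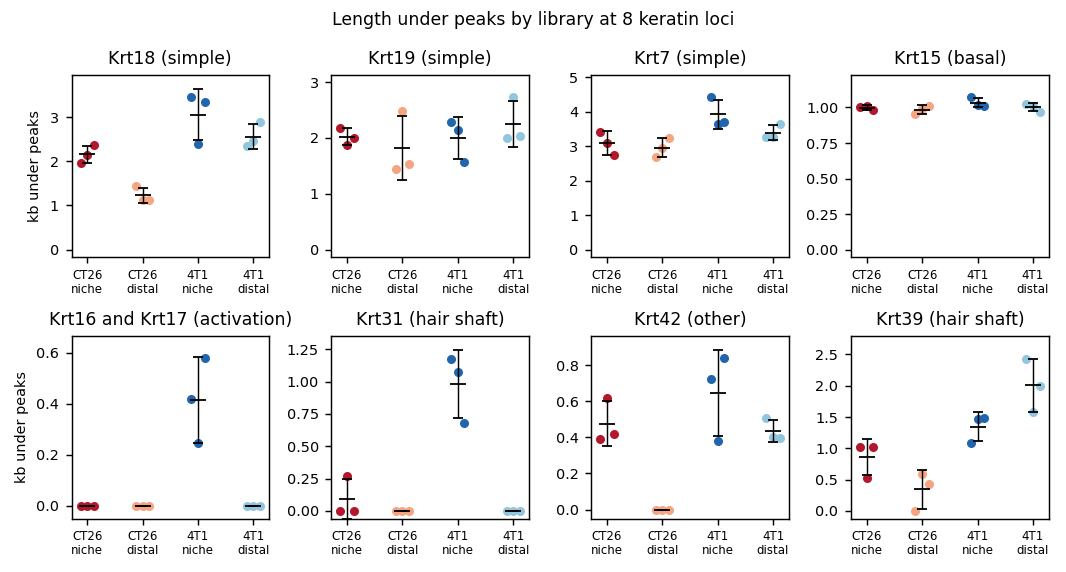
Length under peaks in kb, not scaled, at 8 keratin loci in each library (points) with mean and SD (bars, n = 3), for CT26 niche, CT26 distal, 4T1 niche and 4T1 distal; y axes differ. Krt31 stands at 0.681 to 1.18 kb in 4T1 niche and at 0 in 4T1 distal libraries, Krt42 at 0.393 to 0.617 kb in CT26 niche and at 0 in CT26 distal libraries, and Krt15 stays near 1 kb throughout.

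Merged over the 12 libraries where they overlapped by at least 1 bp, the peaks within 10 kb of keratin genes made 81 of 83727 regions. All 12 libraries held 34 of them (42.0%, against 42.1% of all regions), and 12 (14.8%, against 15.3%) came from a single library. The middle keratin region stood at the 27.4th percentile of -log10 p, against the 30.2nd for all regions. In 4T1, 3 of 75 keratin regions were present in each niche library and absent from each distal one, against 2.72% of all regions, and 0 showed the opposite, against 0.15%. In CT26 the counts were 2 of 69, against 1.96%, and 0, against 0.172%. These 5 were the regions named above at Krt31 (2) and Krt16 in 4T1 and at Krt42 and Krt18 in CT26. Their shares, 4.0% and 2.9%, are close to the background and rest on a handful of regions. No region was held by all libraries of 1 model and none of the other.

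**Figure D4:**
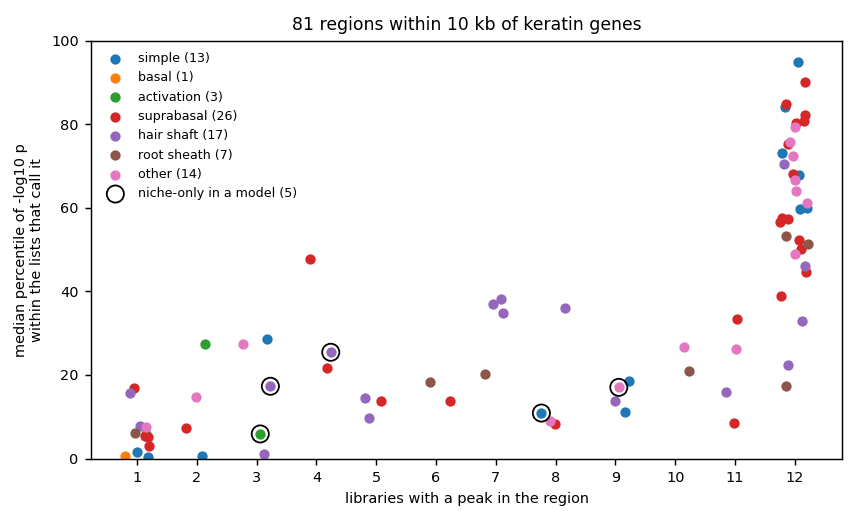
The 81 regions within 10 kb of keratin genes, by the number of libraries with a peak there (x) and the median percentile of the authors' -log10 p within the lists that call it (y); points are spread sideways within each count, colours give the class of the nearest keratin, and circles mark the 5 regions present in each niche library and absent from each distal library of a model. The circled regions stand low, while 34 regions present in all 12 libraries reach the top.

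Several loci read only a neighbour's peak. Of the 52 genes, 34 were the nearest keratin gene to at least 1 region and 12 had no region, while 6, namely Krt15, Krt4, Krt34, Krt36, Krt81 and Krt82, had only regions that lie nearer another keratin gene. For 20 genes, a region nearest to them was present in all 12 libraries: 3 of 4 simple, 0 of 3 basal, 0 of 4 activation, 6 of 12 suprabasal, 4 of 15 hair shaft, 3 of 8 root sheath and 4 of 6 other keratins. Only keratin genes were weighed as neighbours in these counts. Krt222 is among the 34 and the 20, though its 1 region overlaps another gene, Smarce1, and lies 1117 bp from Krt222.

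Between the tumour models, 10 of 36 keratin loci were called in CT26 against 4T1 over both sites, 2 higher and 8 lower in CT26, against a background of 24.1% of all loci (19.2% higher and 4.89% lower). Of the 8, Krt31, Krt16 and Krt17 met the filter of 3 libraries only through their 4T1 niche libraries or, for Krt31, these and 1 CT26 niche library, so their direction was largely fixed by the filter. This comparison turns on the scaling. The median over all loci was 0.0776 with scaling and -0.213 without it, and all loci called split into 3229 higher and 822 lower with scaling but 21 higher and 7788 lower without. Without scaling, 18 keratin loci were lower and 0 higher in CT26. Other settings also changed the split and the genes: 5 higher and 4 lower at -log10 q of at least 5 (2 of them among the 10), 4 higher and 2 lower with flanks of 2 kb (1 among the 10), and 4 higher and 5 lower with flanks of 50 kb (3 among the 10). The median over the 36 keratin loci was -0.0432 with scaling. Krt15 was higher in CT26 by 0.23 ± 0.05 (limma adjusted p = 0.0142) and Krt4 by 0.25 ± 0.06 (0.0120), but without scaling both values were below 0, at -0.0253 and -0.00142. Both loci read a single neighbouring region of near-constant length, that of Krt19 and that of Krt79. Krt4, a type II keratin of mucosa, had 1.14, 1.05 and 1.14 kb in CT26 niche, 0.929, 0.893 and 1.06 kb in CT26 distal, 1.11, 1.09 and 1.10 kb in 4T1 niche and 0.894, 1.05 and 0.976 kb in 4T1 distal libraries.

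The loci lower in CT26 were Krt18, Krt39, Krt25, Krt26, Krt31, Krt42, Krt16 and Krt17. Krt25 and Krt26, type I keratins of the inner root sheath, share their peaks, with 0.869, 0.726 and 0.731 kb in CT26 niche, 0.450, 0.530 and 0.506 kb in CT26 distal, 1.36, 1.20 and 1.06 kb in 4T1 niche and 1.18, 0.992 and 0.964 kb in 4T1 distal libraries. All CT26 libraries lay below all 4T1 libraries there before scaling, and the share of all loci that do so was not counted. Scaled, both were lower in CT26, with a log2 difference of -0.30 ± 0.06 (limma adjusted p = 0.0109), but the difference was 0.10 when each list was cut to the same number of peaks. Krt39 was lower, at -0.84 ± 0.21 (limma adjusted p = 0.0178), but stood at 0.11 at equal peak numbers. Krt18 was lower, at -0.32 ± 0.10 (limma adjusted p = 0.0444), but stood at 0.11 at equal peak numbers and passed in the opposite direction, at 0.33 (adjusted p = 0.00458), when weak peaks (-log10 q under 5) were left out. Krt31 (0.0175), Krt42 (0.0212), and Krt16 and Krt17 (0.0490 each) also passed by adjusted p, with groups at 0 as described. At equal peak numbers limma called 0 of 29 keratin loci in CT26 against 4T1, and 94 over all loci. With scaling, 13 of 36 keratin loci (36.1%) stood under an unadjusted p of 0.05, against 38.4% of all loci. There were 5 calls without 4T1 niche replicate 1 and 6 without 4T1 distal replicate 1.

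Whether the niche difference itself differed between CT26 and 4T1 was tested as an interaction. limma called 0 of 36 keratin loci, against a background of 0.0594% of all loci (0.0178% higher and 0.0416% lower), with 6 keratin loci (16.7%) under an unadjusted p of 0.05, against 8.81% of all loci. These 6 were Krt16, Krt17, Krt31, Krt39, Krt42 and Krt76. Krt16 and Krt17 share their peaks and are not separate results. They and Krt31 met the filter only through niche libraries, nearly all of them 4T1, so the share of 16.7% was partly fixed by the filter. The largest value was that of Krt39, whose niche minus distal difference was 1.23 ± 0.42 higher in CT26 than in 4T1 on the log2 scale (limma adjusted p = 0.385). In the opposite direction it was that of Krt31 (limma adjusted p = 0.216), given without a fold because both distal groups were at 0. The calls at Krt31 in 4T1 and at Krt42 in CT26 are therefore not shown to belong to 1 model.

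Keratin filaments are anchored at desmosomes and hemidesmosomes, and 16 of 19 genes of these junctions had a tested locus. In 4T1, 0 of 16 were called, against 0.624% of all loci. In CT26 and over both models 1 was, against 0.672% and 2.38% of all loci. It was Col17a1, a transmembrane collagen of hemidesmosomes, and was higher in niche. It had 0.374, 0.679 and 0.493 kb in CT26 niche libraries and 0 in all CT26 distal libraries (limma adjusted p = 0.0447), and 0.677, 0.715 and 1.25 kb in 4T1 niche libraries against 0.477, 0.203 and 0.446 kb in 4T1 distal libraries (over both models, adjusted p = 0.0239). Niche libraries stood above distal ones in both models at that locus. On scaled lengths, 8.08% of all tested loci did so in 4T1 and 6.76% in CT26. In CT26 the call was lost without any 1 CT26 library (limma adjusted p from 0.0590 to 0.115), 4T1 niche replicate 1 or 2 (0.0591 or 0.0647) or 4T1 distal replicate 1 or 3 (0.0533 or 0.0582), and over both models without 4T1 niche replicate 2 or 3 (0.0508 or 0.0540). The median log2 change of the 16 was -0.09 in 4T1 and -0.04 in CT26. Of 8 other intermediate filament genes, Vim and Lmna among them, and of 11 tested regulators of keratin genes, such as Klf5 and Grhl2, 0 were called between niche and distal cells in either model. At the shares of all loci called, lists this short would hold few or no calls, so these counts say little about the lists.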

How the data were processed

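The members, gene lists and tests were chosen with earlier results of these data known. Krt74, Krt85 and 1 further keratin gene are not analysed here. The authors deposited, 1 broad peak list per sample, made with MACS2 and bedtools on GRCm38 per the submitters' processing notes, which give no versions. Aligner and filters: not given in the sources used here. From the deposited lists came peak coordinates, the -log10 p-value and -log10 q-value, and the fold enrichment (a ratio within a library); the last 3 only describe, rank or filter peaks within a list. Depth per sample is unknown, so no counting interval was computed, and 12 libraries limit the precision.

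Peaks on 19 autosomes and X were kept (lowest -log10 q 1.00027) and summed over RefSeq gene bodies with 10 kb flanks in Python 3.11.15 (pandas 2.3.3, numpy 2.4.6). Lengths were tested with limma 3.58.1 (R 4.3.3; 4 group means, eBayes with trend), checked on simulated data. Named members are Krt7, Krt18, Krt19, Krt20, Krt5, Krt14, Krt15 and Krt17, those called, the longest of each class, and regions of a single site. Alternatives changed scaling, peak number, q, flank, added length, filter, replicate block and libraries. Replicates are, per the labels, independent pools.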

Additional observations from a re-analysis of the deposited data

Results flagged for a closer look

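At Krt76, a suprabasal keratin of oral epithelium, niche and distal libraries stood apart in opposite directions in the models. Scaled to equal covered length, the locus had 0.256, 0 and 0 kb in CT26 niche libraries and 0.316, 0.365 and 0.424 kb in CT26 distal libraries, so every CT26 niche library lay below every CT26 distal one. It had 0.280, 0.499 and 0.271 kb in 4T1 niche libraries and 0.119, 0.250 and 0.248 kb in 4T1 distal libraries, where every niche library lay above. The difference between the models, CT26 minus 4T1 in niche minus distal, was -0.858 on the log2 scale and did not pass (limma adjusted p = 0.331). The region behind it lies 9647 bp from the gene and is cut by the edge of the 10 kb flank. Read whole and not scaled, it overlapped between sites in both models. It measured 586, 340 and 0 bp in CT26 niche and 477, 471 and 661 bp in CT26 distal libraries. In 4T1 it measured 577, 560 and 462 bp in niche and 360, 743 and 581 bp in distal libraries. Not scaled, the cut locus still stood apart in 4T1 (0.315 to 0.613 kb in niche, 0.127 to 0.271 kb in distal libraries). The separation in 4T1 is thus not seen in the whole region. In CT26 the cut locus itself overlapped without scaling (0 to 0.271 kb in niche, 0.253 to 0.346 kb in distal libraries). The whole region was not read scaled, so it cannot decide on the CT26 separation. The highest value at the cut locus, that of 4T1 niche replicate 2, also holds a peak of 260 bp inside the gene.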

How the results depend on the processing

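The counts of called keratin loci are small and moved with most settings. In 4T1 (1 called), there were 4 without scaling, 3 with loci in at least 1 library, and 0 at equal peak numbers, at -log10 q of at least 5, with flanks of 2 or 50 kb or with loci in at least 6 libraries; leaving out 1 library gave 0 to 1. In CT26 (1 called), there were 4 without scaling and 0 at equal peak numbers, with 2000 bp added, or with flanks of 2 or 50 kb; leaving out 1 library gave 0 to 1. At -log10 q of at least 5 the CT26 call was Krt75 and not Krt42. Over both models (2 called), there were 9 without scaling, 0 at equal peak numbers, at -log10 q of at least 5 and with either flank, and 1 with 2000 bp added or loci in at least 6 libraries; leaving out 1 library gave 0 to 2. For CT26 against 4T1 (10 called), there were 18 without scaling, 0 at equal peak numbers and 6 with flanks of 2 kb; leaving out 1 library gave 5 to 10, with 5 without 4T1 niche replicate 1 and 6 without 4T1 distal replicate 1. The interaction stayed at 0 in every setting run. Single-site regions numbered, in 4T1 (3, all in niche libraries), 1 at equal peak numbers, which was in distal libraries, 2 at -log10 q of at least 5 (1 in niche and 1 in distal libraries) and 3 to 7 with 1 library left out, and 1 at equal peak numbers, 1 at -log10 q of at least 5, 0 with flanks of 2 kb and 2 to 5 with 1 library left out in CT26 (2), all in niche libraries. Of 375 alternative values for 19 results on named genes, 268 kept direction and side of the threshold, 94 kept the direction but lost the call and 13 turned. The 268 include the interaction values of Krt31 (19), Krt39 (22) and Krt76 (19), which were never called and stayed so. They therefore overstate how steady the calls were. Krt42 over both models kept its call in 6 alternatives, lost it in 12 and turned in 1. With flanks of 50 kb, the values that turned were Krt42 in CT26 (-0.0409) and over both (-0.0705), and, in CT26 against 4T1, Krt16 (0.0743), Krt17 (0.0963) and Krt42 (0.14). The others, all in CT26 against 4T1, were Krt15 (-0.0253) and Krt4 (-0.00142) without scaling, Krt18 (0.11), Krt25 and Krt26 (0.10 each) and Krt39 (0.11) at equal peak numbers, and Krt18 at -log10 q of at least 5 (0.33) and with flanks of 2 kb (0.0228). The cause was not tested. Krt31 could not be tested at equal peak numbers, at -log10 q of at least 5 or with loci in at least 6 libraries. Deviations of same-numbered libraries from their group means correlated between -0.0903 and 0.0892 in 18 pairs. These values cannot show whether same-numbered niche and distal libraries came from the same lungs. With the replicate block the counts were 1 in 4T1, 0 in CT26 (Krt42 adjusted p = 0.0584 by limma), 1 over both models and 8 between the models.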
